A study of Mus musculus with 531 samples.

Results

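The 10 genes described here encode enzymes that methylate lysine 9 of histone H3 (H3K9), the proteins that bring them to DNA, the proteins that bind the finished mark, and a zinc finger protein that protects imprints. They were taken by name from the list Trim28, Setdb1, Ehmt1, Ehmt2, Suv39h1, Suv39h2, Zfp57, Cbx1, Cbx3 and Cbx5, and all 10 were found among the 22084 genes of the count table. Levels are given as log2(CPM + 1), where CPM are reads of a gene per 1000000 reads counted on genes in a cell. The cells came from C57Bl/6Babr mouse embryos and were profiled by scM&T-seq, in which the RNA of a single cell is read by Smart-seq2 and its DNA by bisulfite sequencing. Only the RNA was analysed here. There were 5 embryos at embryonic day 4.5 (E4.5), 1 at E5.5, numbered 7, and 2 at E6.5, all unperturbed and with no genotype beyond the strain given. Embryo numbers are those of the labels, and the study's methods give fewer embryos for E4.5 than the labels number, so whether the 5 numbered embryos are separate animals is not settled. Per the study's methods, the trophectoderm of the E4.5 embryos was removed by immunosurgery, while visceral endoderm and extraembryonic ectoderm were separated by hand at E5.5 and extraembryonic tissue was cut away at E6.5.

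Of 264 cells, 217 had at least 50000 reads and 2000 detected genes and were kept. Median depth ranged from 398206 reads per cell in E4.5 embryo 1 to 1511811 in the E5.5 embryo. Clustering on marker genes gave 20 epiblast-like and 55 endoderm-like cells at E4.5, 51 and 8 at E5.5, and 13 epiblast-like and 23 mesoderm-like cells at E6.5. A further 40 cells of E6.5, which raised 12 of 15 endoderm and 9 of 10 trophectoderm markers, and 7 cells that raised no marker list were left unnamed. Of 11 epiblast markers, the epiblast-like cells of E4.5 raised 10, those of E5.5 raised 8 and those of E6.5 raised 4, fewer than the 6 raised by the mesoderm-like cells of that stage. The naming at E6.5 is therefore weak. Leiden clustering placed the 13 cells with 35 of the unnamed ones, and clustering under a stricter cell filter gave no epiblast-like cluster there. Several groups stood apart from their labels. In E4.5 embryo 5, 6 of 18 cells held at least 10 reads of Y-linked genes, against 24 of 24 in embryo 4 and 0 in embryos 1, 2 and 3. Results are therefore also given without embryo 5. Such cells numbered 1 of 59 in the E5.5 embryo, and 1 of 36 and 0 of 47 in embryos 1 and 2 of E6.5. The part of this in differences between stages was not tested. All 8 endoderm-like cells of E5.5 carry cell numbers that are multiples of 12, and 0 of the 51 epiblast-like cells do, so lineage and position in the numbering cannot be told apart there. Every kept cell of E6.5 held reads of the endoderm gene Ttr, including the 13 epiblast-like cells (median 8.26 on the log2 scale, lowest 6.57), whereas 2 of 20 epiblast-like cells did at E4.5 and 2 of 51 at E5.5. The stages differ in the prefix of their cell labels, so stage and prefix cannot be told apart.

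Methylation of H3K9 marks silent chromatin. KRAB zinc finger proteins such as ZFP57 bind DNA and recruit TRIM28 (KAP1), which brings in the methyltransferase SETDB1. ZFP57 binds a methylated motif at imprinted control regions and helps them keep their DNA methylation while the rest of the genome of the early embryo is demethylated. EHMT1 (GLP) and EHMT2 (G9a) work as a pair on euchromatin, SUV39H1 and SUV39H2 methylate pericentromeric chromatin, and the HP1 proteins CBX1, CBX3 and CBX5 bind the mark.

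Trim28, Cbx1 and Zfp57 are the members past the threshold of edgeR between the lineages of E4.5 (below), and the windows around their starts are shown because they differ in CpG content. Each runs from 250 bases before to 50 bases after a start listed by RefSeq (GRCm38.p6), 5′ to 3′ on the strand of the gene, and capitals mark CpG dinucleotides. The Trim28 window is at chr7:13023902-13024201 on the plus strand, the Cbx1 window at chr11:96788885-96789184 on the plus strand, and the Zfp57 window at chr17:37000913-37001212 on the plus strand.
Trim28: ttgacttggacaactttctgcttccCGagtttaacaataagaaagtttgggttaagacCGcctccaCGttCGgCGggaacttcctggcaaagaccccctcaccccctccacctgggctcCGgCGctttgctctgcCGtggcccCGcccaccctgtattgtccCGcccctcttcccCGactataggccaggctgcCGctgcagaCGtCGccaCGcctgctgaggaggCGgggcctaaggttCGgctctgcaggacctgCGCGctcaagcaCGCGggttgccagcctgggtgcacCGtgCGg
Cbx1: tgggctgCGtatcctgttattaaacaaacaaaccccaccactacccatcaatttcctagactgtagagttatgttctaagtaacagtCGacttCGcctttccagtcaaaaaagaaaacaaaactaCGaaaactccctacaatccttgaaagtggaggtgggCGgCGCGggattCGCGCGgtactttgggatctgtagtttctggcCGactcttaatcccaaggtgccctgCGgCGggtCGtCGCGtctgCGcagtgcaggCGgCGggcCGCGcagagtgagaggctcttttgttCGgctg
Zfp57: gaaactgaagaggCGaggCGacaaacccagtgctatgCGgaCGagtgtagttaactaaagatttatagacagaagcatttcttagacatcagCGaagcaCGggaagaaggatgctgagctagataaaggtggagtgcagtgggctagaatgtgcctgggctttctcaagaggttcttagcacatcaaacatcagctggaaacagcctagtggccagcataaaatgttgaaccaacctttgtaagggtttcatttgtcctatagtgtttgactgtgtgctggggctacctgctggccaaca

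The Trim28 window held 23 CpGs and the Cbx1 window 22, against a median of 7 over 32851 windows of the same length. The 3 windows of Zfp57 held 4, 6 and 9, and which start these cells used was not determined. The other members held between 15 and 40, apart from the second Cbx5 window with 8. The hexamer TGCCGC, read on both strands and known as the core of the ZFP57 motif, was found in 3 of the 16 windows of the 10 genes, those of Trim28, of the second start of Ehmt2 and of 1 start of Suv39h1, against 11.6% of all windows.

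In the plots of levels by embryo, the members fell into abundant and scarce genes. Levels of different genes were compared as CPM of summed reads per kb of exon. In epiblast-like cells of E4.5, Trim28 was at 126 ± 22.7 (SD, n = 5 embryos), Cbx1 at 124 ± 35.9 and Cbx3 at 67.7 ± 40.9. Zfp57 at 30.3 ± 9.67 and Cbx5 at 28.3 ± 7.28 followed. The methyltransferases were the lowest, with Ehmt2 at 17.3 ± 9.46, Setdb1 at 14.6 ± 7.16, Ehmt1 at 11.5 ± 2.53, Suv39h1 at 8.23 ± 6.55 and Suv39h2 at 5.55 ± 3.37. Trim28 and Cbx1 lay within their spread of each other, as did Zfp57 and Cbx5, and the ranges of the methyltransferases overlapped. In endoderm-like cells of E4.5, Cbx3 was at 64.1 ± 45.4, Trim28 at 47.2 ± 7.77 and Cbx1 at 46.6 ± 13.1, and Zfp57 was at 6.75 ± 5.78, ranging from 0.862 to 14.2 between embryos. In epiblast-like cells of the E5.5 embryo the order was led by Cbx1 at 204.9, Cbx3 at 75.95 and Trim28 at 69.5. In those of E6.5, Trim28 was the most abundant at 132 ± 40.5 (SD, n = 2) and Zfp57 the least at 0.986 ± 0.219.

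**Figure D1:**
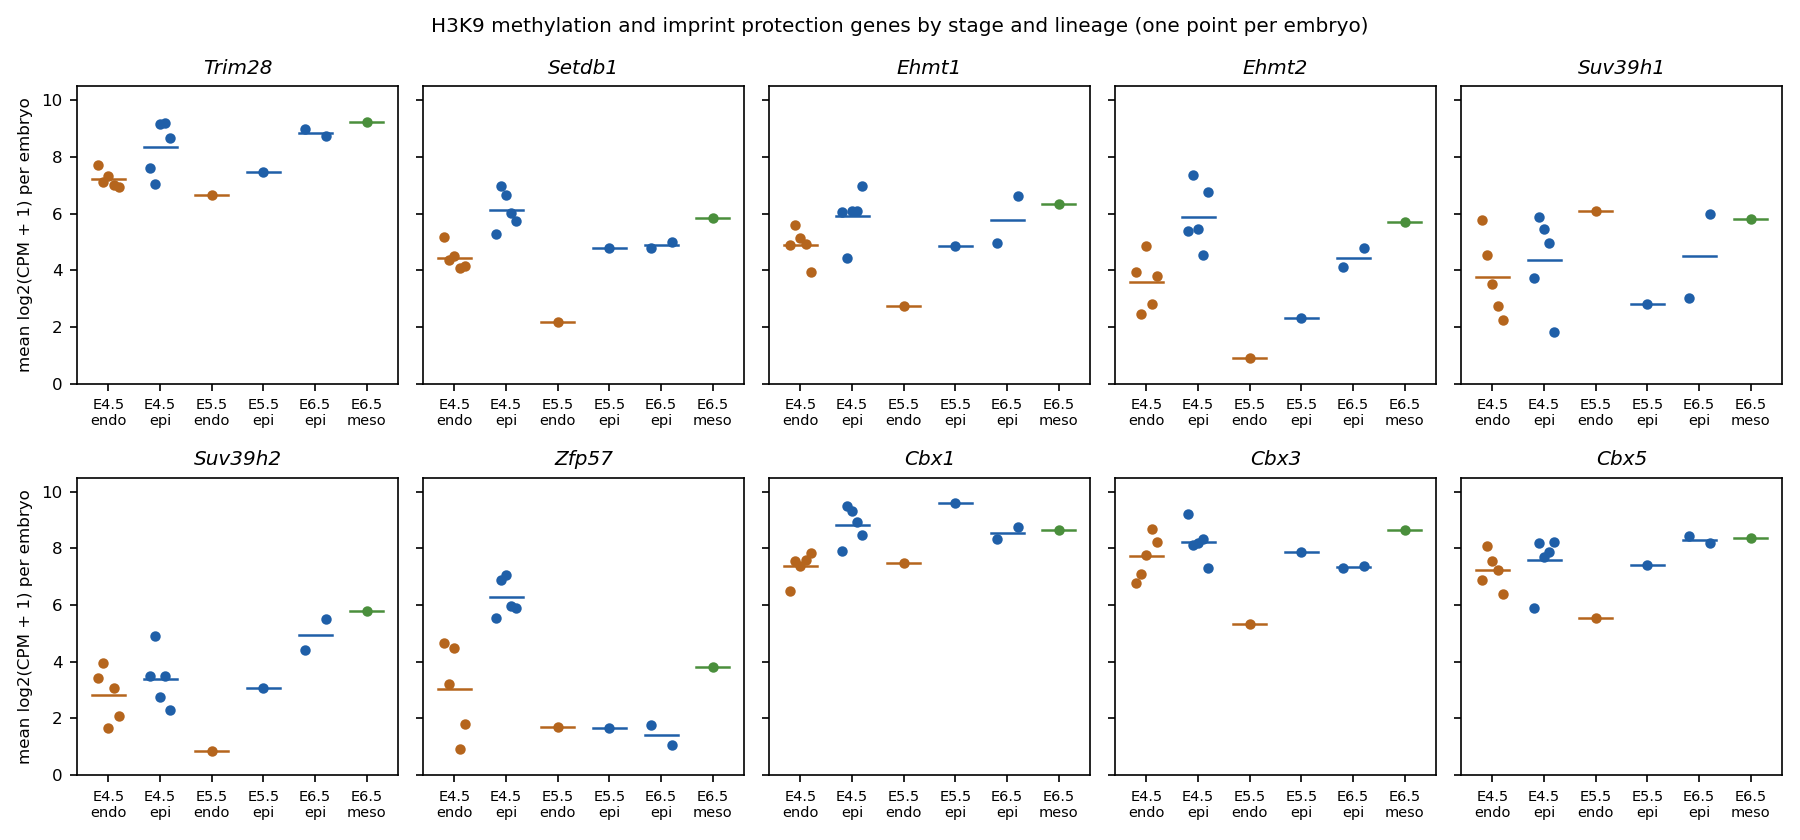
Mean log2(CPM + 1) of each gene over the kept cells of an embryo (points), by stage and lineage (endo, endoderm-like; epi, epiblast-like; meso, mesoderm-like), with lines at the mean of the embryos. Zfp57 averaged 6.27 in epiblast-like cells of E4.5 and 1.42 in those of E6.5, while Trim28, Cbx1, Cbx3 and Cbx5 stayed between 5.35 and 9.59 in the group means shown.

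To ask whether epiblast and endoderm of the same embryo differ in this machinery, reads were summed over the cells of each lineage in each of the 5 E4.5 embryos, and the lineages were compared within embryos over 9215 genes. Embryos 1 to 5 held 5, 4, 4, 5 and 2 epiblast-like cells and 10, 4, 6, 19 and 16 endoderm-like cells, so values of embryo 5 rest on 2 epiblast-like cells. Of the 10 members, 3 were higher in epiblast-like cells (quasi-likelihood test of edgeR, Benjamini-Hochberg adjusted p under 0.05), against 3.45% of all genes tested. They were Zfp57, Cbx1 and Trim28. None was lower, against 7.11% of all genes, and 4 of the 10 had an unadjusted p under 0.05, all higher, against 8.77% of all genes higher at that p. DESeq2 called 4 members, all higher, against 7.8% of all genes higher by that tool, and limma on cell means called 4, all higher, against 5.54%. The median log2 fold change of the members was 0.80, beside -0.36 over all genes.

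Zfp57, the imprint protector, had the largest difference. Its mean level in epiblast-like cells was 5.53, 6.88, 7.05, 5.98 and 5.88 in embryos 1 to 5, and in endoderm-like cells 4.67, 3.23, 4.5, 0.93 and 1.80. The embryo means of the lineages did not overlap. In summed reads the difference was 2.63 ± 0.65 (log2 fold change ± SE, adjusted p = 0.0244), which is 6.19-fold. Reads of Zfp57 were found in 19 of 20 epiblast-like cells, 95% (95% exact interval 75.1% to 99.9%), and in 34 of 55 endoderm-like cells, 61.8% (47.7% to 74.6%), with 47.4% to 90% in the single embryos. With each cell thinned to 50000 reads these shares were 90% and 29.1%. Without embryo 2 the adjusted p was 0.101 (log2 fold change 2.34) and without embryo 4 it was 0.0586 (2.04). Without embryo 5 it was 0.0262 (2.96).

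Trim28, the scaffold that joins zinc finger proteins to SETDB1, had summed levels of 421, 529, 572, 650 and 441 CPM in the epiblast-like cells of embryos 1 to 5 and of 239, 156, 216, 178 and 193 CPM in their endoderm-like cells. All 5 epiblast-like sums exceeded all 5 endoderm-like sums. The log2 fold change was 1.46 ± 0.25 (adjusted p = 0.00302), or 2.75-fold. Averaged over cells on the log2 scale, the difference was -0.11 and -0.06 in embryos 1 and 2 and between 1.71 and 2.20 in the other 3. In embryo 2, 1 of 4 epiblast-like cells held no Trim28 read. In embryo 1 all 5 held reads, with an SD of 3.51 between cells. On this scale limma gave an adjusted p of 0.160.

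Cbx1, which encodes HP1 beta, averaged 7.92, 9.49, 9.32, 8.93 and 8.47 in epiblast-like and 6.49, 7.56, 7.37, 7.60 and 7.83 in endoderm-like cells of embryos 1 to 5. The lineages did not overlap. It was higher in epiblast-like cells in each embryo, by 0.64 to 1.95. In summed reads the log2 fold change was 1.47 ± 0.29 (adjusted p = 0.00706), or 2.76-fold. The other HP1 genes were not past the threshold, with log2 fold changes of 0.50 ± 0.27 for Cbx5 (HP1 alpha) and 0.23 ± 0.55 for Cbx3 (HP1 gamma). Cbx3 did not keep 1 direction, since its cell means were higher in epiblast-like cells of embryos 1, 2 and 3 and higher in endoderm-like cells of embryos 4 and 5. Whether Cbx1 differs from Cbx3 and Cbx5 in this respect was not tested. Without embryo 5, Cbx1 was at 1.84 and Trim28 at 1.64, both past the threshold.

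None of the methyltransferases passed the threshold in edgeR. Ehmt2 averaged 5.37, 7.35, 5.46, 4.52 and 6.76 in epiblast-like cells and 3.95, 2.46, 4.84, 2.82 and 3.81 in endoderm-like cells of embryos 1 to 5. It was higher in epiblast-like cells within each embryo, while the ranges of the lineages overlapped. Its log2 fold change was 1.67 ± 0.58 (adjusted p = 0.0892), and DESeq2 (adjusted p = 0.00901) and limma (0.0258) put it past the threshold. Its partner Ehmt1 was at 0.83 ± 0.42 (adjusted p = 0.242). Setdb1 was at 0.76 ± 0.42 (adjusted p = 0.287). On the scale of cell means its difference ranged from 0.13 to 2.62 over the embryos, and limma called it (adjusted p = 0.0379). The values of Suv39h2 and Suv39h1 were 0.34 ± 0.80 and -0.26 ± 0.67. Suv39h1 differed by -2.06 and -0.44 on the scale of cell means in embryos 1 and 5 and by 1.35 to 2.25 in the other 3, so its mean of 0.60 on that scale has the opposite sign to its fold change in summed reads. Suv39h1 lies on the X chromosome.

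On the scale of cell means, 5 of the 10 members (Setdb1, Ehmt2, Suv39h2, Zfp57 and Cbx1) were higher in epiblast-like cells in each of the 5 embryos, against 9.9% of the 8765 genes with a mean of at least 1. In summed reads 5 of the 10 were also higher in each embryo, against 8.86% of the same genes, but these were Trim28, Ehmt1, Zfp57, Cbx1 and Cbx5, so that Zfp57 and Cbx1 alone were higher in each embryo on both scales. For the other 3 the log2 ratio of summed reads was -0.10 for Setdb1 in embryo 5, -0.04 for Ehmt2 in embryo 3, and -0.59 and -1.003 for Suv39h2 in embryos 4 and 5. With a pseudocount of 10 CPM, Suv39h2 was at -0.03 in embryo 1. That pseudocount also lowered the mean difference over embryos from 3.24 to 2.04 for Zfp57, from 2.32 to 1.45 for Ehmt2, from 1.69 to 1.02 for Setdb1, from 0.60 to 0.19 for Suv39h1 and from 0.55 to 0.23 for Suv39h2. Labels divide the E4.5 embryos into prefix P1 (embryos 1 and 2) and prefix P2 (embryos 3 to 5). Within P1, the log2 fold changes were 1.48 for Trim28, 2.05 for Cbx1 and 2.55 for Zfp57, and none was past the threshold. Within P2 they were 1.5, 1.13 and 2.76, and Trim28 alone was (adjusted p = 0.0167). The median number of detected genes was 7156 in endoderm-like and 6754 in epiblast-like cells. A group of 5 cells held both marker sets. They fell with the endoderm-like cells in the clustering used here but were named epiblast-like when 3 clusters were made, and Leiden clustering also put 25 rather than 20 cells with the epiblast. Without these 5 cells the log2 fold changes of Trim28, Cbx1 and Zfp57 were 1.67, 1.70 and 3.12, and with Leiden lineages 1.73, 1.79 and 3.23, all past the threshold.

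**Figure D2:**
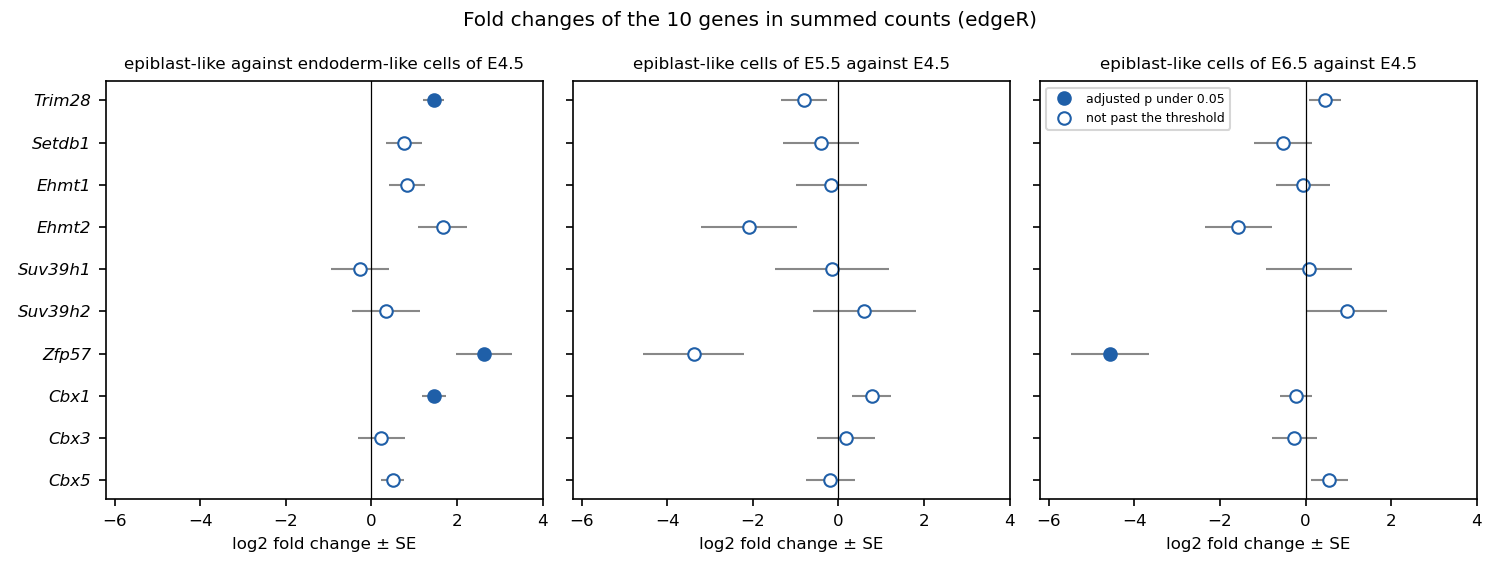
Log2 fold changes (points) and standard errors (bars) of the 10 genes in summed reads, in 3 comparisons. Filled points passed the threshold: Trim28 (1.46), Cbx1 (1.47) and Zfp57 (2.63) between the lineages of E4.5, and Zfp57 (-4.57) between epiblast-like cells of E6.5 and E4.5.

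The epiblast-like cells of the 3 stages were then compared, in 1 fit of 8 embryos over 12639 genes. At E5.5, where the spread of the single embryo had to be taken from the other stages, 0 of 10 members passed the threshold in edgeR, against 0.206% of all genes. At an unadjusted p under 0.05 there was 1 member, Zfp57, against 7.29% of all genes, a share near that of the members. DESeq2 called Zfp57, against 2.35% of all genes, and limma called 0, against 0.0293%. With 1 embryo at E5.5, these calls compare that embryo with those of E4.5. The median log2 fold change of the members from E4.5 to E5.5 was -0.18, beside 0.0047 over all genes.

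At E6.5, 1 of 10 members was lower than at E4.5, against 1.42% of all genes, and none was higher, against 2.04%. This was Zfp57. Its level in summed reads was 97.9, 147, 143, 126 and 59.1 CPM in the 5 E4.5 embryos and 4.32 and 3.15 CPM in the 2 E6.5 embryos, with no overlap between the stages. The log2 fold change was -4.57 ± 0.91 (adjusted p = 0.0071), or 23.8-fold lower. The E5.5 embryo was at 10.6 CPM, and the log2 fold change from E4.5 to E5.5 was -3.39 ± 1.17, a value for 1 embryo that does not bear on the comparison with E6.5.

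Zfp57 reads were found in 95% of epiblast-like cells at E4.5, in 35.3% (22.4% to 49.9%) at E5.5 and in 53.8% (25.1% to 80.8%) at E6.5. Thinned to 50000 reads per cell, the shares were 90%, 27.5% and 15.4%. These shares pool the cells of a stage. By embryo, 80% to 100% of epiblast-like cells held a read at E4.5, against 80% in embryo 1 and 37.5% in embryo 2 of E6.5, so the unthinned shares of the stages touched. Among cells with a read, the median level was 7.12, 4.72 and 1.83 in the order of the stages, a value that depends on depth through which cells hold a read. The endoderm reads carried by E6.5 cells move with the stage, and their part in the Zfp57 result was not tested. In the unnamed 40 cells of E6.5, which raised 12 of 15 endoderm and 9 of 10 trophectoderm markers, Zfp57 was at 2.40 (mean of 2 embryos). These cells were not tested against the epiblast-like ones. Leaving out embryo 1 of E6.5 gave an adjusted p of 0.0545 (log2 fold change -5.12) and leaving out embryo 2 one of 0.0605 (-4.16), in fits that take the spread of the lone E6.5 embryo from the other stages. With the mesoderm-like cells added the log2 fold change was -3.91 (adjusted p = 0.0204), and with all kept cells of each stage in place of the epiblast-like ones it was -2.77 (0.0352). Without E4.5 embryo 5 the log2 fold change was -4.74 (adjusted p = 0.00369).

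**Figure D3:**
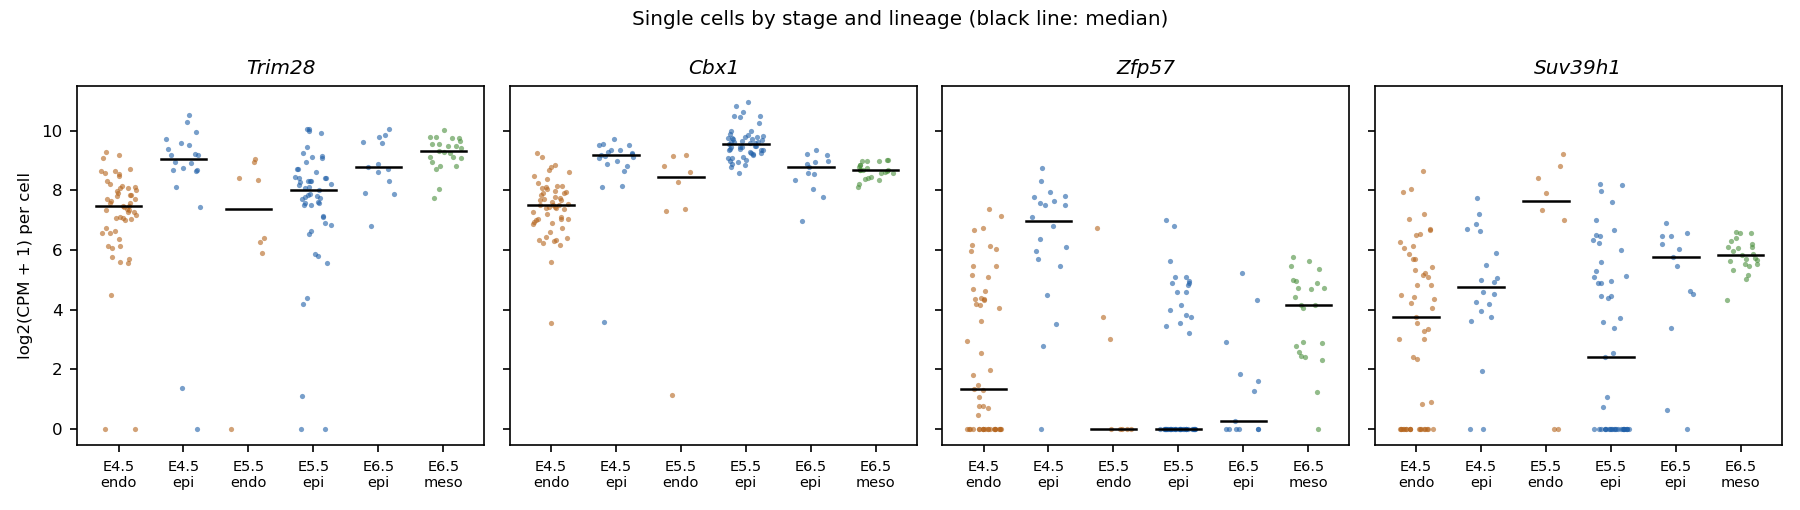
Log2(CPM + 1) in single cells for 4 of the genes, by stage and lineage, with the median of the cells as a black line and labels as in the plot of levels by embryo. The median of Zfp57 was 6.96 in epiblast-like cells of E4.5 and 0 in those of E5.5, and 6 of 8 endoderm-like cells of E5.5 lay between 7.0 and 9.22 for Suv39h1.

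The other 9 members did not pass the threshold between the stages. From E4.5 to E6.5, Trim28 was at 0.45 ± 0.38, Cbx1 at -0.22 ± 0.37, Cbx5 at 0.56 ± 0.43 and Cbx3 at -0.26 ± 0.52 (log2 fold change ± SE). The approximate 95% intervals of these 4 lay between -1.29 and 1.40. For the methyltransferases the errors were wider. Ehmt2 was at -1.57 ± 0.79 (adjusted p = 0.296), after -2.10 ± 1.12 from E4.5 to the E5.5 embryo, and Suv39h2 was at 0.97 ± 0.93. Setdb1 was at -0.53 ± 0.68, Ehmt1 at -0.06 ± 0.63 and Suv39h1 at 0.09 ± 1.01. Suv39h1 was at 10.01 CPM in epiblast-like cells of E6.5 embryo 1 and at 73.1 CPM in those of embryo 2, a spread between the embryos of 1 stage that is larger than its change between stages. Both comparisons use the same E4.5 embryos.

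At E5.5 the lineages come from 1 embryo, and their values are given without a test. Suv39h1 differed most, by -3.27 (epiblast-like minus endoderm-like). Of the 8 endoderm-like cells, 6 were at 7.0, 7.34, 7.91, 8.41, 8.83 and 9.22 and 2 held no read, while the 51 epiblast-like cells had a median of 2.40 and a maximum of 8.20. Over all cells of each lineage this was 274 CPM against 37.1 CPM. Zfp57 was at 1.69 in endoderm-like and 1.65 in epiblast-like cells. The other 8 members averaged lower in the endoderm-like cells, by 0.81 for Trim28 to 2.62 for Setdb1, but so did 70.1% of the 7393 genes with a mean of at least 1 at this stage. The endoderm-like cells held fewer detected genes (median 4224 against 5599), and the part of this in their low values was not tested. Setdb1 shows how few cells such a mean can rest on, since 3 of the 8 cells held its reads and the summed levels of the lineages were 76.2 and 72.8 CPM.

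At E6.5, the 23 mesoderm-like cells, all from embryo 2, were set beside the 8 epiblast-like cells of that embryo, again without a test. Zfp57 averaged 3.8 in the mesoderm-like and 1.06 in the epiblast-like cells, and 22 of 23 and 3 of 8 cells held reads. Cbx3 was at 8.64 and 7.37. The other 8 members differed by less than 1, with Trim28 at 9.24 and 8.75 and Cbx1 at 8.66 and 8.75. Mesoderm-like cells had a median of 9904 detected genes against 8846 in the 13 epiblast-like cells, and all of them held reads of each member except Zfp57.

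The wider pathway was described through 43 partner genes in 4 lists, of which 39 were tested between the lineages of E4.5. Calls are those of edgeR unless another tool is named. In edgeR 8 of the 39 were called (973 of 9215 genes), in DESeq2 16 (2387 of 9215) and in limma 15 (1819 of 9583). Among the cofactors of the methyltransferases and related enzymes, 2 of 8 tested were higher in epiblast-like cells and none was lower, beside 3.45% and 7.11% of all genes for this and the lists that follow. These were Cdyl, a chromodomain protein that binds EHMT2 (2.32 ± 0.50, adjusted p = 0.0125), and Atf7ip2, a relative of the SETDB1 cofactor ATF7IP (3.42 ± 0.98, adjusted p = 0.0439). Of 15 HUSH and heterochromatin partners, 3 were higher and none lower in edgeR. Rif1, which organises late-replicating chromatin, was at 2.22 ± 0.28 (adjusted p = 0.000537), the chromatin remodeller Hells at 1.67 ± 0.32 (0.00683) and Atrx, which deposits histone H3.3 in heterochromatin, at 1.58 ± 0.28 (0.00391). From this list DESeq2 and limma also called Pphln1 (log2 fold change -1.80 ± 0.69 in edgeR) and Trim24 (1.84 ± 0.63). DESeq2 alone called Smarcad1 (0.92) and Resf1 (1.10), and limma alone Fam208a (0.75). Of 9 H3K9 demethylases and relatives, Jmjd1c was higher (2.07 ± 0.52, adjusted p = 0.0264) and Kdm4b lower (-4.03 ± 1.18, adjusted p = 0.0488). DESeq2 and limma also called Kdm4a (-2.93 in edgeR), Kdm3a (2.21) and Kdm4c (1.41). Of 7 imprint protection partners, Dppa3, which shields imprints from demethylation in the zygote, was higher (2.29 ± 0.41, adjusted p = 0.00407). DESeq2 alone also called the imprint protection partner Zfp445 (1.34 in edgeR), and limma alone the cofactor Wiz (1.44). The median log2 fold changes of the lists in this order were -0.15, 0.87, -0.13 and 0.71, beside -0.36 over all genes.

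From E4.5 to the single E5.5 embryo, the 40 partner genes tested in epiblast-like cells are described by their fold changes alone. The median log2 fold changes were -0.41 for the cofactors, 0.39 for the HUSH and heterochromatin partners, 0.15 for the demethylases and -0.19 for the imprint protection partners. Over all genes the median was 0.0047. From E4.5 to E6.5, 3 of the 40 were lower and 1 was higher in edgeR, beside 1.42% and 2.04% of all genes. Dppa3 fell by 5.06 ± 0.96 (log2 fold change, adjusted p = 0.00511), from a mean level of 6.74 ± 1.37 (SD, n = 5) to 1.37 ± 0.63 (SD, n = 2). Rif1 fell by 2.09 ± 0.41 (0.00639) and Atrx by 1.46 ± 0.39 (0.0464), while the HUSH subunit Pphln1 rose by 2.70 ± 0.71 (0.0409). No cofactor or demethylase passed the threshold in edgeR, which called 4 of the 40 (438 genes in all). DESeq2 called 9 (1058 genes in all), among them the cofactor Cdyl2 and the demethylase Jmjd1c (-1.49 ± 0.64 in edgeR). Limma called 6 of 39 (597 genes in all) and neither of these. The median log2 fold changes were -1.79 for the cofactors, of which 1 of 8 was above 0, -1.07 for the HUSH and heterochromatin partners, -0.19 for the demethylases and 0.11 for the imprint protection partners, beside 0.14 over all genes.

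**Figure D4:**
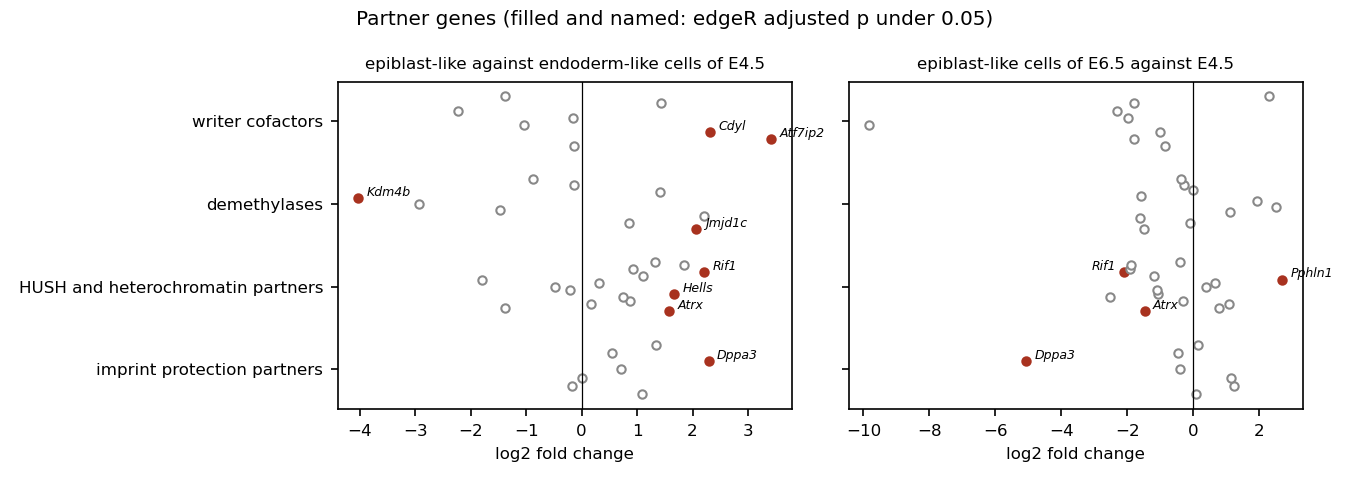
Log2 fold changes of the partner genes by list, with those past the threshold in edgeR filled and named. Between the lineages of E4.5 (left), 7 were higher in epiblast-like cells and 1, Kdm4b, lower. Between E6.5 and E4.5 (right), 3 fell and Pphln1 rose, and the open point farthest to the left is Cdyl2 at -9.82 (adjusted p = 0.124), a gene with no read in the epiblast-like cells of E6.5, so that its fold change depends on the prior count.

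The genes with patterns most like the called members were found by Pearson's r of mean levels over 14 sets of at least 3 cells of 1 embryo and lineage, among 5030 genes. For Zfp57 they were Jup (r = 0.93), Tdh (0.90) and Rbpj (0.90), for Trim28 Cecr2 (0.90), Snap47 (0.89) and Trp53 (0.86), and for Cbx1 Pfdn4 (0.94), U2af1 (0.92) and Psmc3ip (0.90). The sets share embryos and depth, and r is a description only. From cell to cell, the median r over the 45 pairs of members was 0.42 in the 20 epiblast-like cells of E4.5 and between 0.061 and 0.11 in the endoderm-like cells of E4.5, the epiblast-like cells of E5.5 and the mesoderm-like cells of E6.5. In those 20 cells the median r of a member with the number of genes detected was 0.62, and the part of depth in these correlations was not tested.

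The counted features limit some members. In the GENCODE annotation of GRCm38, Trim28 (chr7:12999114-13031035, plus strand) overlaps Zbtb45, Setdb1 (chr3:95323525-95357202, minus strand) overlaps Cers2 and Suv39h2 (chr2:3455815-3475031, minus strand) overlaps Dclre1c, each on the opposite strand, and reads within an overlap cannot be assigned without strand. Cbx3 (chr6:51470360-51483704, plus strand) has 8 pseudogenes named after it, with which its reads may be shared. Zfp57 (chr17:37001163-37010635, plus strand) and Ehmt2 (chr17:34898469-34914052, plus strand) overlap no annotated gene.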

How the data were processed

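RNA of 264 cells was analysed, and the bisulfite data of the same cells are not analysed here. The authors deposited raw read counts per gene without normalization. The submitters' processing notes name HISAT2 2.1.0, featureCounts and GRCm38, with trimming by Trim Galore. The gene annotation is not given in the sources used here. Symbols were matched for 21907 of 22084 identifiers. The members and lists were chosen with earlier results of these data known.

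CPM and log2(CPM + 1) were computed from the deposited counts. Stage and embryo came from the labels. Cells were clustered within each stage (Ward) on marker genes into 2, 2 and 4 clusters. A cluster was named for the list with most markers raised by at least 1 (log2) over the other cells of the stage, unless its leading genes went against the name. The 40 cells of E6.5 that raised most endoderm markers were led by extraembryonic ectoderm genes, so the comparisons planned with endoderm-like cells of E6.5 were not made. Doublets were not called. Counts were summed per embryo and lineage and compared in edgeR 4.0.16 (TMM scaling, quasi-likelihood test, default filter on low counts, Benjamini-Hochberg adjustment, threshold 0.05), with the embryo as a block between lineages. Standard errors are the fold change divided by the square root of F. The scripts were tested on simulated data. DESeq2 1.42.0 and limma 3.58.1 were alternatives, with other cell filters, no filter on low counts, Leiden lineages (scanpy 1.11.5), all kept cells, a pseudocount of 10, thinned reads and each embryo left out. Intervals of shares of cells are 95% exact (Clopper-Pearson) ones. They cover the counting of cells alone and leave out the spread between embryos.

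Both lineages of an E4.5 embryo carry the same embryo number in the labels, which is where the pairing comes from, although the deviations of the lineages correlated only between -0.0029 and 0.052 across genes. The named genes are the 10 members, the partner genes past the threshold (at most 4 per list and comparison) and the 3 genes most like each called member. Outside this rule, Cdyl2 was named after its values were seen, Ttr as a marker of endoderm, and Zbtb45, Cers2 and Dclre1c for their position. Partner genes called by DESeq2 or limma but not by edgeR were also named.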

Additional observations from a re-analysis of the deposited data

Results flagged for a closer look

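Cbx5 averaged 5.90 on the log2 scale in the epiblast-like cells of E4.5 embryo 1, far from the other 4 embryos, which lay between 7.68 and 8.23. In that embryo 1 of 5 cells held no read of Cbx5. Among the 20 sets of 5 embryos examined, about 1 would stand this far apart by chance, and 1 did.

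Zfp57 was higher in epiblast-like than in endoderm-like cells in all 5 embryos of E4.5, by 0.86 to 5.05 on the log2 scale, and differed by -0.037 in the single embryo of E5.5. This difference between the stages was not tested, and at E5.5 it rests on 8 endoderm-like cells.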

How the results depend on the processing

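Of the 490 fold changes computed for single members under the alternatives, 430 kept their direction and their side of the threshold. Between the lineages of E4.5, 3 members were past the threshold (973 of all genes), 0 within prefix P1 (307) and 1 within prefix P2 (325). With an embryo left out between 2 and 3 were (531 to 813 of all genes). Fewer of all genes passed in these smaller sets, so the lower counts say nothing particular to the members. From E4.5 to E5.5 the count of members changed with DESeq2 (Zfp57 called) and with all kept cells (Cbx1 called), settings that also called more of all genes. From E4.5 to E6.5 it was 1, and between 0 and 1 with an embryo left out, being 0 without either E6.5 embryo. Over all genes the counts depended more on the setting, between 307 and 2387 (973 as reported), 3 and 317 (26), and 89 and 1058 (438) in the 3 comparisons. The direction reversed in members that were not past the threshold, and the cause was not tested. Between lineages, Suv39h1 (-0.26) was at 0.60 with limma, 0.11 with the stricter cell filter, 0.22 with Leiden lineages and 0.074 in P2, where Suv39h2 was at -0.10 and Cbx3 at -0.83, and with embryos left out Suv39h1 ranged from -0.70 to 0.22 and Cbx3 from -0.35 to 0.89. From E4.5 to E5.5, with all kept cells Trim28 was at 0.0055, Setdb1 at 0.28, Ehmt1 at 0.97, Suv39h1 at 0.58, Cbx3 at -0.019 and Cbx5 at 0.52. Under the stricter filter Ehmt1 was at 0.16 and Suv39h1 at 0.19, with no cell filter Ehmt1 at 0.53 and Cbx5 at 0.28, and without E5.5 cells under 4000 genes Ehmt1 at 0.11, Suv39h1 at 0.21 and Cbx3 at -0.30. With Leiden lineages, whose epiblast-like cells of E5.5 include 7 of the 8 endoderm-like ones, Ehmt1 was at 0.088, Suv39h1 at 1.18, Suv39h2 at -0.22 and Cbx3 at -0.69, and with limma Suv39h2 at -0.33 and Cbx3 at -0.34. With embryos left out, Suv39h1 ranged from -0.44 to 0.29 and Cbx3 from -0.032 to 0.67. From E4.5 to E6.5, Trim28 was at -0.17 and Ehmt1 at 0.21 under the stricter filter, Suv39h1 at -0.26 with the mesoderm-like cells and Cbx1 at 0.36 with all kept cells. With embryos left out, Trim28 ranged from -0.23 to 0.91, Ehmt1 from -0.66 to 0.36, Suv39h1 from -1.53 to 0.84 and Cbx3 from -0.60 to 0.25.

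When embryo number was used as a replicate block from E4.5 to E6.5, the count of members stayed at 1 and Suv39h1 was at -0.50. These embryos share only a number, and their deviations correlated at -0.012 and 0.0045. Without the block between lineages the count stayed at 3. Prefix sets, the cells that hold both marker sets, the mesoderm-like cells and the E5.5 cells under 4000 genes were chosen after seeing the data. Values under the stricter cell filter use the lineages as reported, restricted to the cells that pass. Clustering those cells anew gave no epiblast-like cluster at E6.5. Leiden clustering gave none either and no value there, and the planned comparisons with endoderm-like cells of E6.5 could not be fitted.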
